A study of Homo sapiens with 11 samples.

Results

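The genes described here are 44 genes of mitosis, given as a list of names that covers roles in cell division, with no measured value in the rule, although results of these data were known when the list was made. The count table held 43 of them among its 19990 genes, and SPC25, a subunit of the outer kinetochore, is not analysed here. They cover mitotic entry (8 genes), the spindle checkpoint and the anaphase switch (7), the chromosomal passenger complex (4), the centromere and kinetochore (5 in the table), spindle motors and spindle assembly (8), cytokinesis (5) and chromosome structure (6). The cells were cardiomyocytes derived from the human iPS line WTC11, which is an established line and was used at passage 63. Day 30 of culture gave 4 wells, Day 60 gave 3 and Day 113 gave 4. All groups shared the same treatment: plating with the ROCK inhibitor Y-27632, the GSK3 inhibitor CHIR99021, then the Wnt secretion inhibitor IWP2, and B27 medium, first without and then with insulin until collection. No group carried an engineered allele. The labels name 1 line and describe its wells as parallel, so the p-values given here measure only the spread between wells and not between differentiations. The labels name no batch, and time in culture and date of collection cannot be told apart.

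Mitosis is driven by cyclin-dependent kinase 1 bound to cyclins A and B, together with the Polo-like and Aurora kinases. Chromosomes are condensed, attached through kinetochores to the spindle, held by a checkpoint until every kinetochore is attached, and then separated when the anaphase-promoting complex marks securin and cyclin B for destruction. Most of these genes are transcribed in late S phase, G2 and M, so in a bulk sample their mRNA is commonly read as a measure of cycling cells. Heart muscle cells largely stop dividing around birth, and many of those that still copy their DNA do not complete cytokinesis. In bulk RNA, fewer cycling cells and less mitotic mRNA per cycling cell cannot be told apart.

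Many mitotic promoters carry a cell cycle genes homology region (CHR) near the start of transcription and CCAAT boxes upstream of it. The CHR is contacted by the MuvB core, which joins the DREAM repressor in resting cells and B-MYB and FOXM1 in dividing cells, while CCAAT boxes are bound by NF-Y. The promoters shown are those of members that the results below turn on, and each is the 110 bases before the RefSeq start of transcription (GRCh38.p14), 5′ to 3′ on the gene's own strand. Capitals mark matches to the CHR (TTTGAA or TTCGAA, with TTCAAA as the reverse complement of the first) and to the CCAAT box (CCAAT or ATTGG). In CDCA8 and MKI67, 1 match of each kind shares bases in the run TTTGAATTGG. PLK1 lies at chr16:23678779-23678888 (+), CDC20 at chr1:43358871-43358980 (+), CCNB2 at chr15:59105036-59105145 (+), CDCA8 at chr1:37692406-37692515 (+), MKI67 at chr10:128126424-128126533 (-), PRC1 at chr15:90994536-90994645 (-) and ANLN at chr7:36389752-36389861 (+). CCNB1 at chr5:69167040-69167149 (+) and KIF20A at chr5:138179002-138179111 (+) are shown as members with CCAAT boxes and no CHR letters in these windows.
PLK1: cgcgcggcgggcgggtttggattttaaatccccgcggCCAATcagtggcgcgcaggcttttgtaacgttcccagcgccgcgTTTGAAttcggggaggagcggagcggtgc
CDC20: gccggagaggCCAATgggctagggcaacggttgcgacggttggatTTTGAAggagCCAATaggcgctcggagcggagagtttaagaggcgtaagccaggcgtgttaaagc
CCNB2: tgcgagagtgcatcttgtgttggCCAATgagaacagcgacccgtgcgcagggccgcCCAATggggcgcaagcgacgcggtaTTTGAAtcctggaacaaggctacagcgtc
CDCA8: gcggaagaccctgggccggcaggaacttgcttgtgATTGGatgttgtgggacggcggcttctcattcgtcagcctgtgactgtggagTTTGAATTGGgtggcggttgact
MKI67: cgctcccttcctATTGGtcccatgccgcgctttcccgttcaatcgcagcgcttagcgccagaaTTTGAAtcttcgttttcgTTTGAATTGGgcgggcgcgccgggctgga
PRC1: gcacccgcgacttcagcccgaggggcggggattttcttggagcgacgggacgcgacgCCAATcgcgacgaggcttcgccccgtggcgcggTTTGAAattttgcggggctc
ANLN: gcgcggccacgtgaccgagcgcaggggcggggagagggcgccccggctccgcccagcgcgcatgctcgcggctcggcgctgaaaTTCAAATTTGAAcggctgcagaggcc
CCNB1: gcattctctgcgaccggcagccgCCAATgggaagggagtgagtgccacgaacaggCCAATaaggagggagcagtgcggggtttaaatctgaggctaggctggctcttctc
KIF20A: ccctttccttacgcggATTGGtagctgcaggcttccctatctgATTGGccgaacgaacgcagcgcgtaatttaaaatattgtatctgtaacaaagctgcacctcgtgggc

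A promoter running from 250 bases before to 50 bases after the start was found in the RefSeq table for 37 of the 43 members, as 46 promoters. AURKA, TTK, BUB3, UBE2C, BIRC5 and TPX2 had no entry. The CHR letters were present on either strand in 32 of the 46 member promoters (69.6%), against 16.4% of all 35116 promoters in the table. CCAAT was present in 32 of 46 (69.6%), against 34.6% of all promoters, and both together in 24 of 46 (52.2%), against 6.38%. An E2F-type match (TTTGGCG or TTTCCCG, either strand) was present in 5 of 46 (10.9%), against 6.06%. The CHR letters also sat close to the start: a match began within the 60 bases before it in 18 of 46 member promoters (39.1%), against 3.17% of all promoters, and the 44 matches in member promoters had a median position of -28. In PLK1 and CCNB2 the match began at position -29, and in PRC1 at -20. CDC20, the activator of the anaphase-promoting complex, had its nearest match farther out, at -65. A match is a description, not a site or a cause.

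**Figure D1:**
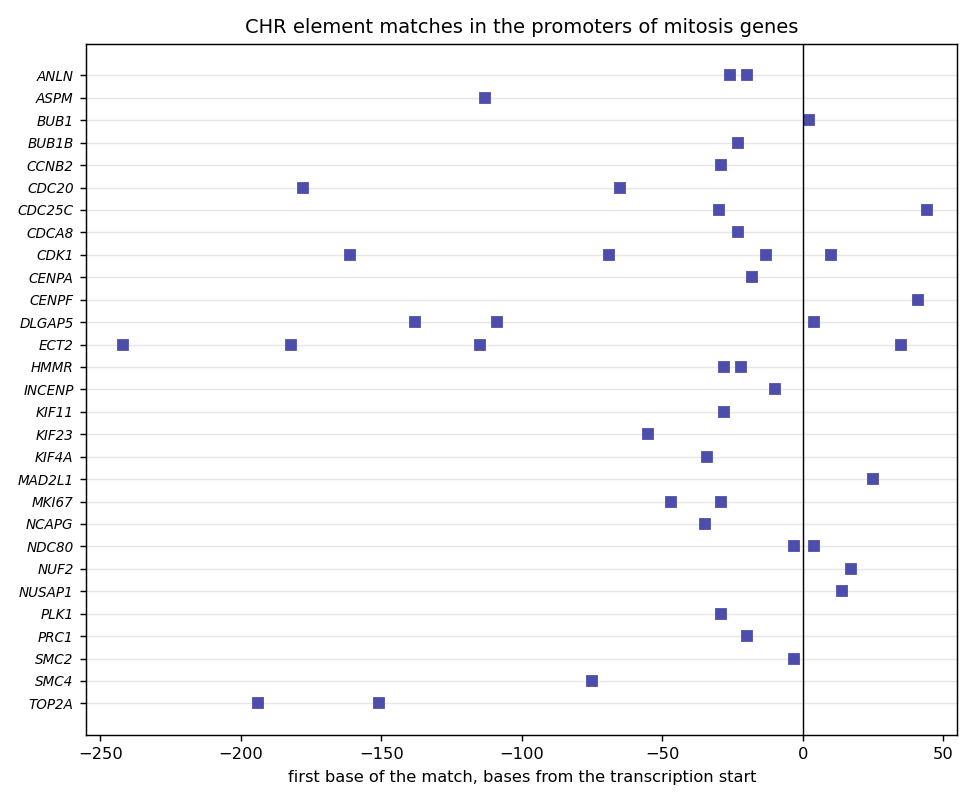
Position of each CHR match (TTTGAA or TTCGAA, either strand) relative to the RefSeq start of transcription, in bases, in the member promoters. Of the 44 matches, the median lies at -28, and 18 of 46 promoters hold a match that begins in the last 60 bases before the start.

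Each library held between 24.1 and 34.5 M counts, where M is 1000000, and 26751 to 93681 counts per library fell on the members. The lowest count of any member was 44, for CENPA in a Day 113 well, so none was near the limit that a count of 0 allows. No member was removed by the filter on low counts. Levels are given as CPM, counts per 1000000 counts, scaled by TMM, a factor per library that removes differences in composition, and these factors ran from 0.966 to 1.04. Summed CPM of 8 cardiomyocyte genes such as TNNT2, MYH7 and TTN was between 29955 and 41815 in all wells. Markers of other cell types were also present, and 8 fibroblast markers summed to 2070 to 13041 CPM over all wells. Markers of endoderm and epithelium reached 2122 CPM at Day 30. Wells of a day differed by more than sampling noise (chi-square per degree of freedom 11.4 to 84.0), so no pair was treated as a single library deposited again. That does not show that the wells are independent of each other. Exons of 10 members overlap another gene of the table, and a strand setting for the counting is not given in the sources used here, so counts of those members are less certain, SMC4 and NCAPG most of all. UBE2C has a near copy, UBE2CP5, whose row held 36.7% as many counts as UBE2C's, so how reads were divided between them is uncertain.

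As a group, the mitosis genes were highest at Day 60 and lowest at Day 113. Their summed CPM in the 4 Day 30 wells was 1747, 1764, 1457 and 1757, with a mean of 1681 ± 150 (SD, n = 4). In the 3 Day 60 wells it was 2990, 2204 and 2764, with a mean of 2652 ± 405 (SD, n = 3), and every Day 60 well lay above every well of the other days. In the 4 Day 113 wells it was 1772, 1003, 1050 and 1566, with a mean of 1348 ± 381 (SD, n = 4). The range at Day 113 overlapped that at Day 30, because replicate 1 at Day 113 was higher than all Day 30 wells. As shares of TMM-scaled counts, these means were 0.168% at Day 30, 0.265% at Day 60 and 0.135% at Day 113. No p is given for this sum.

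**Figure D2:**
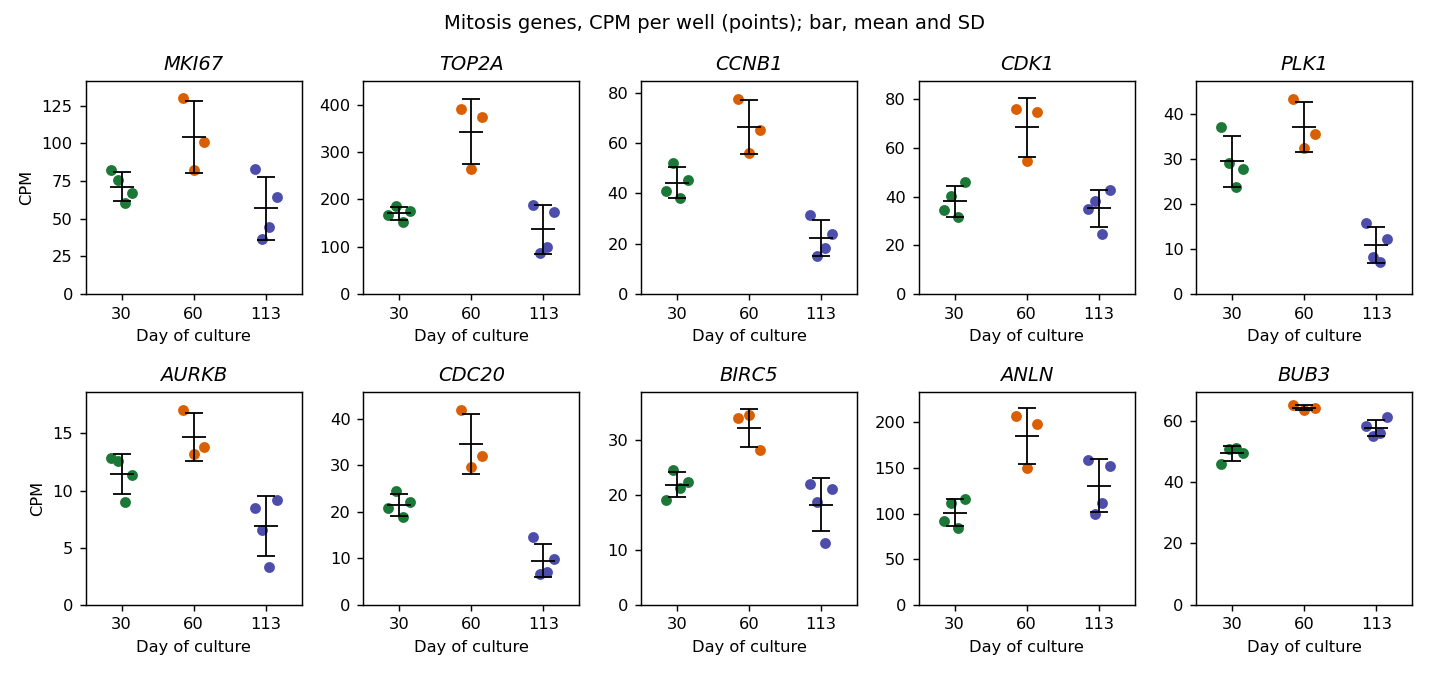
CPM of 10 mitosis genes in each well (points), by day of culture, with 4 wells at Day 30, 3 at Day 60 and 4 at Day 113; black bars are the mean and SD. CDC20 and CCNB1 separate the 3 days, PLK1 is lowest in all Day 113 wells (7.02 to 15.8), and the Day 113 wells of ANLN overlap both other days.

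Between Day 30 and Day 60, mitosis genes were higher. Of the 43 members, 15 rose, none fell and 28 did not pass the threshold of an adjusted p of 0.05 in edgeR's quasi-likelihood test, whereas 4.39% of all genes rose and 5.91% fell in this comparison. The largest changes were in ASPM, a spindle-pole protein, and TOP2A, the DNA topoisomerase that disentangles sister chromatids, both about 1 on the log2 scale. All 43 fold changes were above 0, so the count of members that fell was 0 also at an unadjusted p under 0.05 and with DESeq2 and limma-voom. The median log2 fold change was 0.59 over the members, from 0.13 to 1.06, and -0.01 over all genes. In 33 members every Day 60 well lay above every Day 30 well, which held for 10.7% of all genes. The count of members that rose was sensitive to single wells: leaving out replicate 1 or replicate 3 of Day 60 gave 6 or 7, leaving out replicate 3 of Day 30 gave 8, and leaving out replicate 1 of Day 113 gave 24. It was 25 with DESeq2, 23 with limma-voom and 33 when only the wells of Day 30 and Day 60 entered the fit.

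Between Day 60 and Day 113, nearly every mitosis gene was lower. Of the 43 members, 38 fell, none rose and 5 did not pass, whereas 11.1% of all genes fell and 12.9% rose. The deepest falls were in CDC20, KIF20A, a kinesin of the central spindle, and PLK1, the Polo-like kinase, and 22 members fell by at least 1 on the log2 scale. The count of members that rose was 0 in every tool run, since all 43 fold changes were below 0. The median was -1.03, from -1.86 to -0.12, against 0.0016 over all genes. The 5 members that did not pass were BUB3, KIF23, SMC2, SMC4 and NCAPH. In 35 members every Day 60 well lay above every Day 113 well, which held for 14.4% of all genes. These 3 Day 60 wells also serve in the comparison with Day 30, so the 2 comparisons are not independent.

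Over the whole span from Day 30 to Day 113, the fold changes of the mitosis genes were mostly below 0 and spread widely. Of the 43 members, 17 fell, BUB3 alone rose and 25 did not pass, while 17.2% of all genes fell and 17.3% rose. The share of members that fell (17 of 43) was above that background, and the single rise was not. The rise of BUB3 was lost in 11 of 17 alternative settings. Members were not compared with each other by a test. The members that fell by at least 1 on the log2 scale were PLK1, CDC20, PTTG1 (securin), CDCA8 (borealin), KIF2C (a microtubule-depolymerising kinesin) and KIF20A. The median log2 fold change was -0.45, from -1.44 to 0.37, with 37 members below 0 and 6 above. In 11 members every Day 30 well lay above every Day 113 well, which held for 18.0% of all genes.

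**Figure D3:**
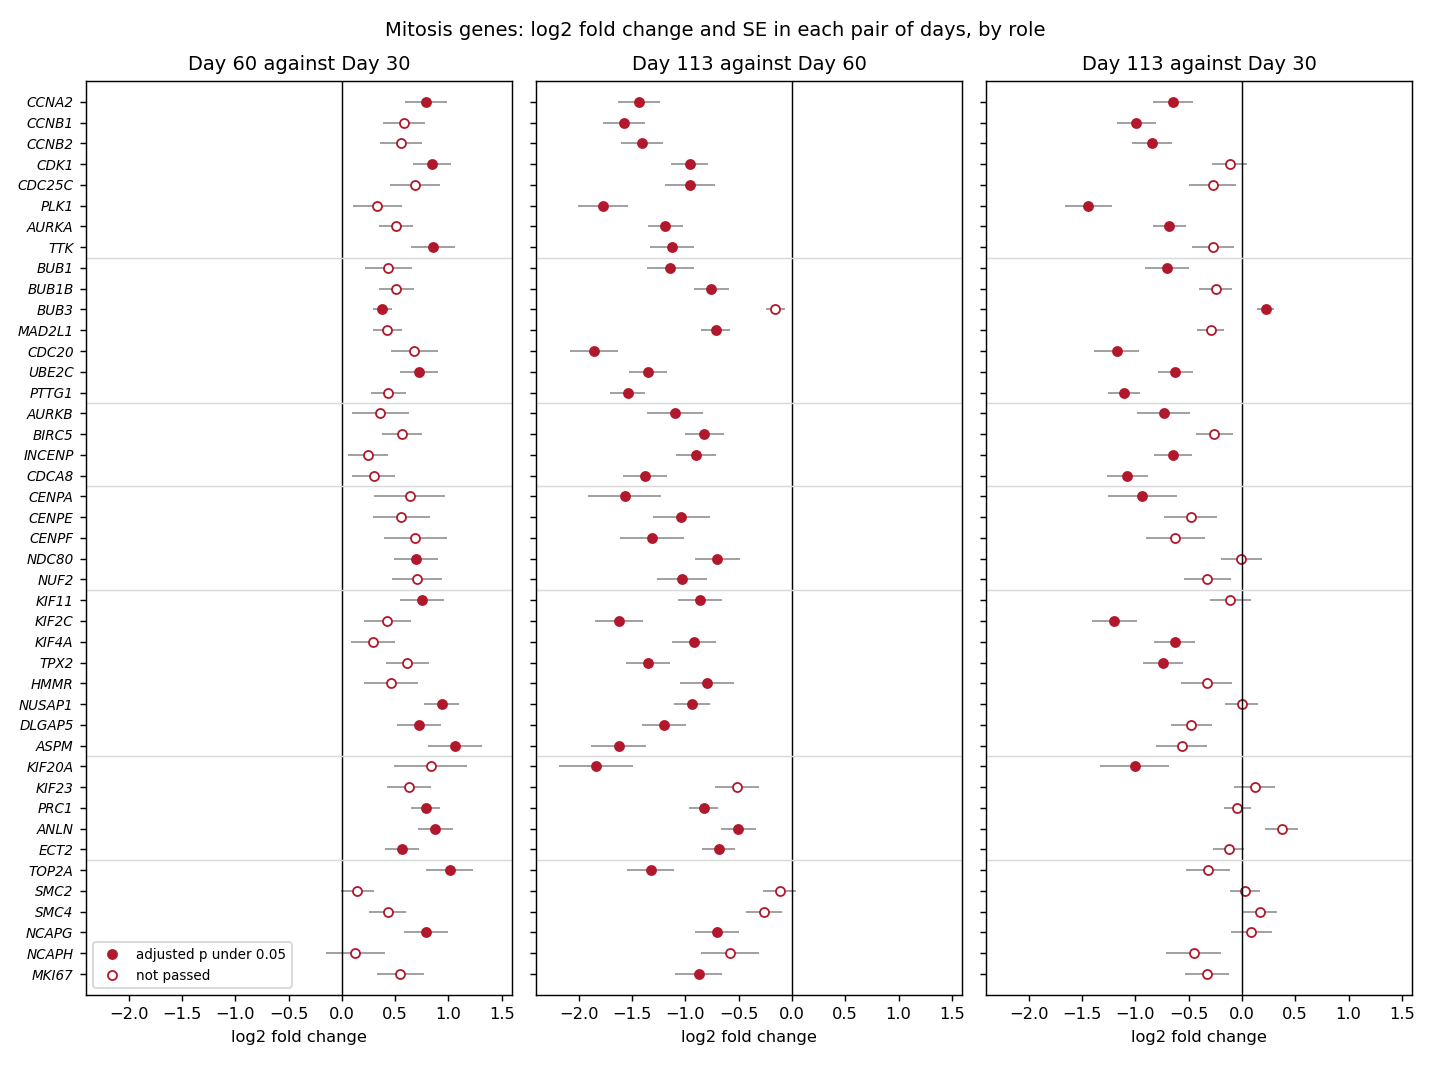
Log2 fold change of each of the 43 members (points, grouped by role between grey lines), with its standard error (horizontal bars), in the 3 pairs of days; filled points passed an adjusted p of 0.05 and open points did not. All 43 lie above 0 for Day 60 against Day 30 and below 0 for Day 113 against Day 60, while for Day 113 against Day 30 they spread from -1.44 to 0.37.

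A single test of any change over the 3 days passed for 39 members, against 37.1% of all genes, and not for HMMR, SMC2, SMC4 and NCAPH. The change in the second interval (Day 60 to Day 113) minus that in the first (Day 30 to Day 60) was below 0 for 37 members by the test of that difference, against 4.38% of all genes (4.97% were above 0). AURKB, HMMR, KIF23, SMC2, SMC4 and NCAPH did not pass it. The largest differences were -2.69 ± 0.43 (SE) for ASPM (adjusted p = 0.0016), -2.67 ± 0.58 for KIF20A (adjusted p = 0.0095) and -2.54 ± 0.37 for CDC20 (adjusted p = 9.9e-04). Leaving out replicate 1 or 3 of Day 60 reduced the count of 37 to 18 or 21.

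The group of mitotic entry holds cyclins, kinases and the phosphatase CDC25C, and the checkpoint kinase TTK was also placed here. These genes were highest at Day 60 and fell after it in all 8 members, and 5 of the 8 ended below Day 30. Of the 8, 3 rose between Day 30 and Day 60 (CCNA2, CDK1 and TTK). For this and each later role, the shares over all genes were 4.39% higher at Day 60 and 11.1% lower after it. From Day 30 to Day 113 the share lower was 17.2%. PLK1 (chromosome 16, 23678889 to 23690367) acts in centrosome maturation, entry and cytokinesis. Its CPM was 37.1, 29.1, 23.7 and 27.8 at Day 30, 43.2, 32.5 and 35.5 at Day 60, and 15.8, 8.14, 7.02 and 12.3 at Day 113. The Day 30 and Day 60 wells of PLK1 overlapped, and all 4 Day 113 wells lay below both. PLK1 fell by 1.77 ± 0.23 (SE) on the log2 scale from Day 60 (adjusted p = 7.7e-05) and by 1.44 ± 0.22 from Day 30 (adjusted p = 1.1e-04). CCNB1 (chromosome 5, 69167150 to 69178245), cyclin B1, is the regulatory partner of CDK1 at entry. Its CPM was 40.9, 52.2, 38.1 and 45.2 at Day 30, 77.4, 56.0 and 65.2 at Day 60, and 31.5, 15.1, 18.1 and 23.9 at Day 113. The 3 days of CCNB1 did not overlap. The log2 fold change at Day 60 was 0.59 ± 0.20 and did not pass (adjusted p = 0.072). It passed with DESeq2 (0.034), limma-voom (0.040), the replicate number as a block (0.049) and the 2 days alone (0.0047). By Day 113 CCNB1 had fallen by 1.58 ± 0.20 from Day 60 (adjusted p = 6.1e-05) and by 0.99 ± 0.19 from Day 30 (adjusted p = 6.9e-04).

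CDK1 (chromosome 10, 60778331 to 60794852), the kinase itself, had fold changes of the same sign as CCNB1 in each pair of days. Unlike CCNB1, it did not pass at Day 113 against Day 30, and the 2 genes were not compared by a test. Its CPM was 34.6, 40.4, 31.5 and 45.8 at Day 30, 75.9, 54.5 and 74.7 at Day 60, and 34.9, 38.2, 24.8 and 42.7 at Day 113. All Day 60 wells lay above the rest, and the Day 30 and Day 113 wells overlapped. CDK1 rose by 0.84 ± 0.17 (adjusted p = 0.0054), fell by 0.96 ± 0.17 (adjusted p = 0.0010), and at Day 113 differed from Day 30 by -0.12 ± 0.16 (adjusted p = 0.63). TTK (chromosome 6, 80004649 to 80042527), the checkpoint kinase MPS1, had a CPM of 15.6, 14.4, 14.0 and 18.8 at Day 30, 31.8, 19.6 and 33.7 at Day 60, and 16.1, 9.94, 10.7 and 15.2 at Day 113. Its Day 60 wells lay above all others, with replicate 2 close to the highest Day 30 well. TTK rose by 0.85 ± 0.21 (adjusted p = 0.015, but 0.067 without Day 60 replicate 1 and 0.083 without replicate 3) and fell by 1.13 ± 0.21 after Day 60 (adjusted p = 0.0011). Of the other 4 members, CCNA2 rose by 0.79 and fell by 1.43 after Day 60. AURKA, the spindle-pole Aurora kinase, fell by 1.19, CCNB2 by 1.41 and CDC25C, the phosphatase that activates CDK1, by 0.96 in the second interval.

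Genes of the spindle checkpoint and the anaphase switch included the member with the deepest fall after Day 60, CDC20, and the 1 member that rose from Day 30 to Day 113, BUB3. Between Day 60 and Day 113, 6 of 7 fell, and from Day 30 to Day 113, 4 fell (BUB1, CDC20, UBE2C and PTTG1). The shares of all genes that fell in these comparisons were 11.1% and 17.2%. CDC20 (chromosome 1, 43358981 to 43363203) had a CPM of 20.8, 24.4, 18.8 and 22.1 at Day 30, 41.8, 29.7 and 31.9 at Day 60, and 14.5, 6.64, 7.07 and 9.75 at Day 113. The 3 days did not overlap. CDC20 fell by 1.86 ± 0.22 from Day 60 (adjusted p = 4.2e-05) and by 1.18 ± 0.21 from Day 30 (adjusted p = 4.5e-04). At Day 60 its log2 fold change was 0.68 ± 0.22 (adjusted p = 0.061). That change passed with upper-quartile scaling (0.044), DESeq2 (0.028), limma-voom (0.023), the replicate number as a block (0.033) and the 2 days alone (0.0031). PTTG1, the inhibitor of separase that CDC20 helps to destroy, fell by 1.54 from Day 60 and by 1.11 from Day 30. UBE2C (chromosome 20, 45812644 to 45816952), the ubiquitin-conjugating enzyme of the anaphase-promoting complex, had a CPM of 22.6, 23.2, 18.7 and 26.1 at Day 30, 40.9, 41.2 and 30.4 at Day 60, and 17.3, 15.3, 10.1 and 16.2 at Day 113. Its 3 days did not overlap. UBE2C rose by 0.73 ± 0.18 (adjusted p = 0.015, but 0.054 when Day 30 replicate 3 was left out, and 0.066 or 0.063 when replicate 1 or 2 of Day 60 was) and fell by 1.35 ± 0.18 after Day 60 (adjusted p = 8.8e-05). At Day 113 UBE2C was lower than at Day 30 by a log2 fold change of -0.62 (adjusted p = 0.0088).

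BUB3 (chromosome 10, 123154402 to 123170467), a checkpoint adaptor that cells outside mitosis also express, varied little between the wells of a day. Its CPM was 45.9, 50.8, 51.1 and 49.4 at Day 30, 65.1, 63.4 and 64.1 at Day 60, and 58.2, 54.9, 56.0 and 61.0 at Day 113. The 3 days did not overlap, with Day 113 in between. BUB3 rose by 0.38 ± 0.09 at Day 60 (adjusted p = 0.011), and its log2 fold change in the second interval was -0.16 ± 0.09 (adjusted p = 0.22). From Day 30 to Day 113 BUB3 rose by 0.22 ± 0.08 (adjusted p = 0.047). That call was lost with upper-quartile scaling (0.080), limma-voom (0.052), robust dispersions (0.051) and the replicate number as a block (0.060). It was also lost without any one of the 4 Day 30 wells or of Day 113 replicates 1, 3 and 4 (0.061 to 0.13). MAD2L1 and BUB1B, subunits of the mitotic checkpoint complex, fell by 0.72 and 0.76 after Day 60 and did not pass against Day 30 (log2 fold changes -0.29 and -0.25).

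The chromosomal passenger complex, which corrects faulty kinetochore attachments and later directs cytokinesis, fell in all 4 subunits after Day 60. Before it, 0 of 4 rose by edgeR and limma-voom, and 1 (BIRC5) by DESeq2 and at an unadjusted p under 0.05. Of all genes, 4.39% rose in edgeR, so 0 of 4 was near the background share. All 4 fold changes were above 0. AURKB (chromosome 17, 8204731 to 8210575), its kinase, had a CPM of 12.8, 12.6, 8.98 and 11.4 at Day 30, 17.1, 13.2 and 13.8 at Day 60, and 8.52, 6.56, 3.28 and 9.19 at Day 113. Day 60 lay above both other days in every well, and 1 Day 113 well overlapped Day 30. AURKB fell by 1.10 ± 0.27 from Day 60 (adjusted p = 0.0074) and by 0.74 ± 0.25 from Day 30 (adjusted p = 0.032). The second call was lost in the 2 days alone and without Day 30 replicates 1, 2 or 4 or Day 113 replicates 2 or 3 (0.056 to 0.084). CDCA8 (chromosome 1, 37692516 to 37709719), the subunit that holds the complex at the centromere with survivin, had a CPM of 13.2, 16.5, 14.2 and 12.3 at Day 30, 22.0, 15.8 and 14.2 at Day 60, and 8.05, 4.65, 6.70 and 7.18 at Day 113. Day 30 and Day 60 overlapped, and all Day 113 wells lay below. CDCA8 fell by 1.38 ± 0.20 from Day 60 (adjusted p = 2.2e-04) and by 1.08 ± 0.19 from Day 30 (adjusted p = 4.4e-04).

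BIRC5 (chromosome 17, 78214253 to 78225635), survivin, kept closer to its first level. Its CPM was 19.1, 24.5, 21.3 and 22.3 at Day 30, 33.9, 34.5 and 28.2 at Day 60, and 22.0, 18.6, 11.3 and 21.0 at Day 113. Day 60 stood above both other days, which overlapped. BIRC5 fell by 0.82 ± 0.19 after Day 60 (adjusted p = 0.0048), and its log2 fold change against Day 30 was -0.26 ± 0.17 (adjusted p = 0.28). At Day 60 its log2 fold change of 0.56 ± 0.19 did not pass (adjusted p = 0.068). It did with upper-quartile scaling (0.048), DESeq2 (0.035), the replicate number as a block (0.034) and the 2 days alone (0.0050). INCENP, the scaffold, fell by 0.90 from Day 60 and by 0.65 from Day 30.

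At the centromere and kinetochore, all 5 measured members fell after Day 60, and 1 (NDC80) rose before it. Over all genes, 11.1% fell after Day 60 and 4.39% rose before it, and 1 rise among 5 is too few to set against that share. CENPA (chromosome 2, 26786056 to 26794589) is the histone variant that marks the centromere. Its CPM was 8.06, 8.14, 5.33 and 5.67 at Day 30, 14.6, 8.70 and 8.36 at Day 60, and 5.83, 1.65, 2.88 and 3.81 at Day 113. Day 60 lay above both other days, and the highest Day 113 well lay within the Day 30 range. CENPA fell by 1.57 ± 0.34 from Day 60 (adjusted p = 0.0036) and by 0.93 ± 0.32 from Day 30 (adjusted p = 0.033), and the second call was lost without Day 30 replicates 1 or 2 or Day 113 replicates 2, 3 or 4 (0.053 to 0.093). NDC80 (chromosome 18, 2571557 to 2616635), which grips the microtubule, had a CPM of 11.6, 14.0, 12.2 and 13.7 at Day 30, 24.0, 17.2 and 21.4 at Day 60, and 15.2, 8.44, 10.8 and 17.0 at Day 113. Its Day 60 wells were the highest, though 17.2 lay close to a Day 113 well at 17.0. NDC80 rose by 0.69 ± 0.21 (adjusted p = 0.043) and fell by 0.70 ± 0.21 (adjusted p = 0.022). The rise was lost without any one Day 30 well or Day 60 replicates 1 or 3 (0.067 to 0.17), and the fall in the 2 days alone (0.053) and without Day 60 replicates 1 (0.11) or 3 (0.068) or Day 113 replicate 3 (0.061). NUF2, the partner of NDC80, fell by 1.03 after Day 60, CENPF by 1.31 and CENPE, a kinetochore kinesin, by 1.04.

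Spindle motors and assembly factors fell after Day 60 in all 8 members, and 4 (KIF11, NUSAP1, DLGAP5 and ASPM) rose before it. The shares over all genes were 11.1% for the fall and 4.39% for the rise. ASPM (chromosome 1, 197084127 to 197146669), which focuses microtubules at spindle poles, had a CPM of 47.5, 44.2, 44.6 and 48.6 at Day 30, 108, 69.3 and 111 at Day 60, and 47.4, 16.4, 23.5 and 37.3 at Day 113. Its Day 30 wells were close together, and only Day 113 replicate 1 reached them. ASPM rose by 1.06 ± 0.25 (adjusted p = 0.014, but 0.061 with robust dispersions, 0.060 without Day 60 replicate 1 and 0.070 without replicate 3) and fell by 1.63 ± 0.26 (adjusted p = 3.6e-04). Against Day 30, ASPM differed at Day 113 by -0.57 (adjusted p = 0.081). That change passed with limma-voom (0.041), with the replicate number as a block (0.012) and without Day 113 replicate 1 (0.0056). KIF2C (chromosome 1, 44739837 to 44767767) had a CPM of 34.8, 31.8, 20.8 and 28.3 at Day 30, 46.3, 30.4 and 40.0 at Day 60, and 17.5, 10.4, 8.47 and 14.1 at Day 113. All Day 113 wells lay below the others. KIF2C fell by 1.63 ± 0.23 from Day 60 (adjusted p = 1.4e-04) and by 1.20 ± 0.21 from Day 30 (adjusted p = 4.4e-04). TPX2, the activator of Aurora A, fell by 1.35 from Day 60 and by 0.74 from Day 30, and the chromokinesin KIF4A fell by 0.92 and 0.63. NUSAP1, a microtubule-bundling protein, rose by 0.94 and fell by 0.94. KIF11, which pushes spindle poles apart, rose by 0.75 and fell by 0.86.

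The 5 genes of cytokinesis had the highest median rise of the roles, 0.79 on the log2 scale, and a median of -0.04 between Day 30 and Day 113. Their summed CPM was 274 ± 27.5 at Day 30 (SD, n = 4), 471 ± 69.6 at Day 60 (SD, n = 3) and 272 ± 72.9 at Day 113 (SD, n = 4). The near-equal Day 30 and Day 113 sums combine a higher ANLN mean (101 and 131 CPM) with a lower KIF20A mean (57.7 and 28.7). Means of KIF23 (30.3 and 32.9), PRC1 (43.7 and 42.3) and ECT2 (41.1 and 37.7) differed less. Chromosome structure also ended near its Day 30 sum (446 and 411), with a median of -0.14 and 0 of 6 genes lower. By contrast, the sum of the 8 entry genes was 234 ± 25.4, 369 ± 58.3 and 148 ± 35.7, and its highest Day 113 well (188) lay below its lowest Day 30 well (198). ANLN (chromosome 7, 36389862 to 36453791), anillin, links the contractile ring to the membrane. Its CPM was 91.9, 111, 84.7 and 116 at Day 30, 207, 150 and 198 at Day 60, and 158, 100, 112 and 153 at Day 113. The Day 113 wells of ANLN overlapped both other days. ANLN rose by 0.87 ± 0.16 (adjusted p = 0.0030) and fell by 0.50 ± 0.16 (adjusted p = 0.036). The fall was lost in the 2 days alone (0.063) and without Day 60 replicates 1 (0.15) or 3 (0.13) or Day 113 replicates 2 (0.080) or 3 (0.097). At Day 113 the log2 fold change of ANLN against Day 30 was 0.37 ± 0.15 (adjusted p = 0.073), which passed without Day 113 replicate 2 (0.018).

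KIF20A (chromosome 5, 138179112 to 138187723), also a gene of cytokinesis, ended below its Day 30 level. Its CPM was 66.9, 59.2, 47.7 and 57.1 at Day 30, 123, 83.4 and 102 at Day 60, and 53.4, 14.2, 13.3 and 33.7 at Day 113. The Day 113 wells lay far apart, and replicate 1 overlapped Day 30. KIF20A fell by 1.84 ± 0.34 from Day 60 (adjusted p = 0.0013) and by 1.01 ± 0.32 from Day 30 (adjusted p = 0.024). The second call was lost with DESeq2 (0.055), robust dispersions (0.11) and without Day 30 replicates 1 (0.066) or 2 (0.052) or Day 113 replicates 2 (0.060) or 3 (0.061). At Day 60 its log2 fold change was 0.83 ± 0.34 (adjusted p = 0.15). The adjusted p was 5.2e-04 for the 2 days alone and 0.037 with the replicate number as a block. PRC1, which bundles the microtubules of the central spindle, rose by 0.79, fell by 0.83 and differed from Day 30 by -0.04 at Day 113. ECT2, the exchange factor that activates RhoA at the midzone, rose by 0.56 and fell by 0.69. KIF23, the kinesin of centralspindlin, passed in no pair of days, with log2 fold changes of 0.63, -0.51 and 0.12.

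The distance between ANLN and PLK1 can be read within each well, free of the library's scale. The log2 ratio of ANLN to PLK1 CPM was 1.31, 1.93, 1.84 and 2.06 at Day 30, 2.26, 2.20 and 2.48 at Day 60, and 3.33, 3.62, 3.99 and 3.63 at Day 113. The 3 days did not overlap. This pair was picked after its values were seen, so the ratio is a description and carries no test. ANLN had the highest (0.37) and PLK1 the lowest (-1.44) log2 fold change of all members for Day 113 against Day 30. A wider ratio at Day 113 than at Day 30 therefore follows from the choice of the pair.

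**Figure D4:**
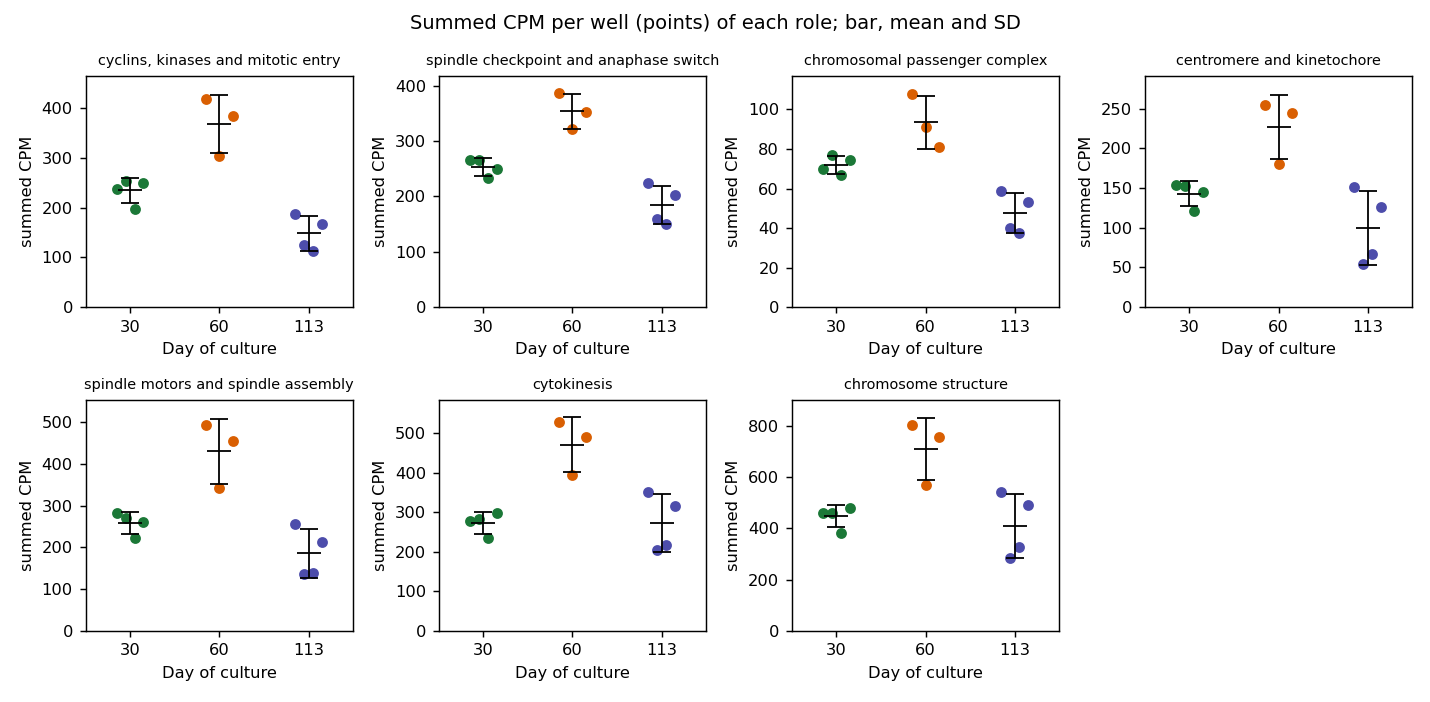
Summed CPM of the members of each role in each well (points), by day of culture; black bars are the mean and SD. The sum of the cytokinesis genes at Day 113 (272 ± 72.9) overlaps that at Day 30 (274 ± 27.5), whereas all Day 113 wells of the entry genes lie below all their Day 30 wells. The Day 113 and Day 30 wells also overlap for the centromere, spindle and chromosome structure sums. They do not overlap for the checkpoint and passenger complex sums.

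Among the genes of chromosome structure, TOP2A, NCAPG and MKI67 fell after Day 60, and 3 condensin subunits passed in no comparison. TOP2A (chromosome 17, 40388525 to 40417896) had a CPM of 168, 185, 152 and 176 at Day 30, 391, 264 and 374 at Day 60, and 189, 86.2, 98.6 and 173 at Day 113. Its Day 60 wells stood clear of all others, and Day 113 overlapped Day 30. TOP2A rose by 1.01 ± 0.22 (adjusted p = 0.0078), fell by 1.33 ± 0.22 (adjusted p = 5.3e-04), and differed from Day 30 by -0.32 ± 0.21 at Day 113 (adjusted p = 0.26). MKI67 (chromosome 10, 128096659 to 128126423) encodes Ki-67, the coat of mitotic chromosomes and a common proliferation marker. Its CPM was 82.5, 75.6, 60.5 and 67.0 at Day 30, 130, 82.4 and 101 at Day 60, and 82.8, 36.3, 44.4 and 64.2 at Day 113. The Day 60 wells overlapped those of both other days. MKI67 had a log2 fold change of 0.55 ± 0.22 at Day 60 (adjusted p = 0.14). At this day MKI67 passed in the 2 days alone (0.012) and with the replicate number as a block (0.037). It fell by 0.87 ± 0.22 after Day 60 (adjusted p = 0.0094, but 0.065 without Day 60 replicate 1), and at -0.33 ± 0.21 did not pass against Day 30 (adjusted p = 0.25), though it did without Day 113 replicate 1 (0.023).

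Condensin folds chromosomes for mitosis, and its SMC subunits also work in interphase. SMC2 was nearly level, at 75.4 ± 13.0 CPM at Day 30, 83.2 ± 10.8 at Day 60 and 76.8 ± 14.3 at Day 113, with log2 fold changes of 0.14, -0.12 and 0.03. SMC4 was at 100.1 ± 12.0, 135 ± 12.8 and 112 ± 32.0 CPM, and none of its comparisons passed. Of the subunits specific to condensin I, NCAPG rose by 0.79 and fell by 0.70, while NCAPH, at 10.2 to 11.1 CPM before Day 113 and 7.44 ± 3.33 at Day 113, passed in none. A p that misses the threshold does not show that these genes stayed level.

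Per kilobase of exon, TOP2A was the most abundant member at Day 30 (26.4 CPM per kb) and Day 60 (53.3), ahead of PTTG1 (21.6) at Day 30 and ANLN (30.8) at Day 60. At Day 113 ANLN (21.7 CPM per kb) and TOP2A (21.2) were highest and differed by less than the spread between wells, followed by NUSAP1 (13.7), SMC4 (13.3) and SMC2 (11.9). PTTG1 was then at 10.0 CPM per kb. CDC25C was lowest on every day, at 1.31, 2.12 and 1.09 CPM per kb. In this order by length-scaled level, PLK1 stood at rank 22 of 43 at Day 30 and rank 39 at Day 113.

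Falls after Day 60 were called among members with CHR letters in the promoter and among those without. Of 29 members with a match, 11 rose to Day 60 (median log2 fold change 0.64), 26 fell after it (-0.92) and 8 were lower at Day 113 than at Day 30 (-0.32). Of 8 without one (AURKB, CCNA2, CCNB1, CENPE, KIF20A, KIF2C, NCAPH and PTTG1), 1 rose (0.50), 7 fell (-1.49) and 6 were lower than at Day 30 (-0.86). Over all genes, 4.39% rose to Day 60, 11.1% fell after it and 17.2% fell from Day 30 to Day 113. The 1 rise among the 8 is too few to set against that share. The 2 groups were not compared by a test, and no match says only that these letters are not in this window. Other forms of the element were not searched.

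The wells of a day were ordered alike across members. Day 30 replicate 3 was lowest of its day in 36 of 43 members, Day 60 replicate 1 highest in 32 and replicate 2 lowest in 35. At Day 113, replicate 1 was highest in 35 members and replicate 4 in the other 8, and these 2 wells were the highest pair in 39. Members of a well share its library, so these counts are not independent.

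Other genes of the cell cycle were taken as lists outside the 44. Of 61 other mitosis genes in the table, 11 rose and none fell to Day 60 (median log2 fold change 0.39), 9 rose and 25 fell after it (-0.51), and 19 rose and 13 fell from Day 30 to Day 113 (0.08). Of all genes, 12.9% rose and 11.1% fell after Day 60, and 17.3% rose and 17.2% fell from Day 30 to Day 113, so the 9 that rose after Day 60 and the 13 that fell over the whole span were near the background share. To Day 60, 4.39% of all genes rose and 5.91% fell in edgeR. No other mitosis gene fell to Day 60 at an unadjusted p under 0.05 or with DESeq2 or limma-voom either. Among those lower at Day 113 than at Day 30 were the centrosomal kinase NEK2 (-1.48), the kinesin KIF14 (-1.09) and TROAP (-1.07). Among those higher were the centromere protein CENPU (1.35) and the kinetochore proteins ZWINT (0.98) and DSN1 (0.77). A list of 17 genes of the anaphase-promoting complex, which holds its subunits and also the activator FZR1, the inhibitor FBXO5 and the conjugating enzyme UBE2S, had a median log2 fold change of 0.25 at Day 113 against Day 30, where 6 rose by edgeR, 8 by DESeq2 and 5 by limma-voom. None fell by any of these tools, and 1 was lower at an unadjusted p under 0.05 in edgeR. ANAPC4 rose by 1.34, ANAPC15 by 1.16 and CDC26 by 0.82.

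Genes of DNA replication, the step before mitosis, ran opposite to the members after Day 60. Of 29, none passed between Day 30 and Day 60 by edgeR, DESeq2 or limma-voom (median log2 fold change -0.07). At an unadjusted p under 0.05 in edgeR, 1 was higher and 4 lower. In edgeR 17 rose and 1 fell after Day 60 (0.86), and 20 rose and 2 fell from Day 30 to Day 113 (0.71). Of all genes, 4.39% rose and 5.91% fell to Day 60, 12.9% and 11.1% after it, and 17.3% and 17.2% over the whole span. The absence of calls before Day 60 was near the background share, and the falls were not above it. Their summed CPM was 539 ± 35.4 at Day 30, 528 ± 26.9 at Day 60 and 802 ± 73.0 at Day 113. PCNA, the sliding clamp of DNA polymerases, rose from 19.8 ± 3.14 CPM at Day 30 to 47.2 ± 10.2 at Day 113 (1.25 ± 0.15 on the log2 scale, adjusted p = 1.3e-05). The flap endonuclease FEN1 rose by 1.23, cyclin E2 (CCNE2) by 1.80, RRM2, of ribonucleotide reductase, by 0.71 and MCM2, of the replicative helicase, by 0.45, while the licensing factor CDT1 fell by 0.62 and DBF4 by 0.81. Within each well, the log2 ratio of summed member CPM to summed replication CPM was 1.64 ± 0.17 at Day 30 (SD, n = 4), 2.32 ± 0.30 at Day 60 (SD, n = 3) and 0.71 ± 0.44 at Day 113 (SD, n = 4). The Day 113 wells (0.17 to 1.16) lay below all Day 30 wells (1.43 to 1.82).

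Of 19 transcription regulators of the cell cycle, 6 rose and 3 fell from Day 30 to Day 113. Of all genes, 17.3% rose and 17.2% fell, so the 3 falls were not above the background share. FOXM1, an activator of mitotic genes, fell by 0.70 after Day 60 (adjusted p = 0.018), and its log2 fold change against Day 30 was -0.36 (adjusted p = 0.15). MYBL2 (B-MYB) rose by 0.72 after Day 60 (adjusted p = 0.017), the direction opposite to FOXM1, and did not pass against Day 30 (0.47, adjusted p = 0.059). E2F1, an activator of replication genes, rose from 13.4 ± 1.78 CPM at Day 30 to 42.0 ± 10.7 at Day 113 (1.65 ± 0.19, adjusted p = 6.9e-06), E2F7 rose by 1.43 and E2F2 by 1.32. LIN9, of the MuvB core, fell by 0.50, E2F3 by 0.49 and E2F5 by 0.51. The other MuvB core genes of the list (LIN37, LIN52, LIN54 and RBBP4) were not among those that fell. The pocket protein p107 (RBL1) rose by 1.09, and p130 (RBL2) had a log2 fold change of 0.08 (adjusted p = 0.55). Protein levels and phosphorylation were not measured.

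Markers of other cell types also changed with day, and their part in the mitosis results was not tested. Of macrophage markers, 2 of 5 were in the table, and the smooth muscle and pericyte markers summed to 593 to 856 CPM over all wells. The 8 fibroblast markers summed to 3353 to 7707 CPM at Day 30, 2070 to 3570 at Day 60 and 5431 to 13041 at Day 113, where 5 of 8 rose and 1 fell after Day 60. All 8 endothelial markers rose after Day 60, from sums of 47.6 to 75.7 CPM at Day 60 to 216 to 833 at Day 113 (75.3 to 104 at Day 30). Markers of endoderm and epithelium summed to 985 to 2122 CPM at Day 30, 459 to 591 at Day 60 and 73.4 to 238 at Day 113, and 7 of 8 fell to Day 60. Of the 8 cardiomyocyte markers, none passed in edgeR between Day 30 and Day 60 (1 higher and 1 lower with DESeq2 and at an unadjusted p under 0.05), and 1 rose and 1 fell after Day 60. Of all genes in edgeR, 4.39% rose and 5.91% fell to Day 60, and 12.9% rose and 11.1% fell after it. The cardiomyocyte counts were near these shares, so they are not a result about these markers. Epicardial markers summed to 104 to 149, 156 to 210 and 189 to 259 CPM. Of the pluripotency markers, 2 of 5 were in the table, and LIN28A had 0 counts in every Day 113 well. Within Day 113, replicate 1, the highest in mitosis genes, was also the highest in the fibroblast (13041) and endothelial (833) sums, whereas replicate 4, the next highest in mitosis genes, was the lowest in both (5431 and 216).

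**Figure D5:**
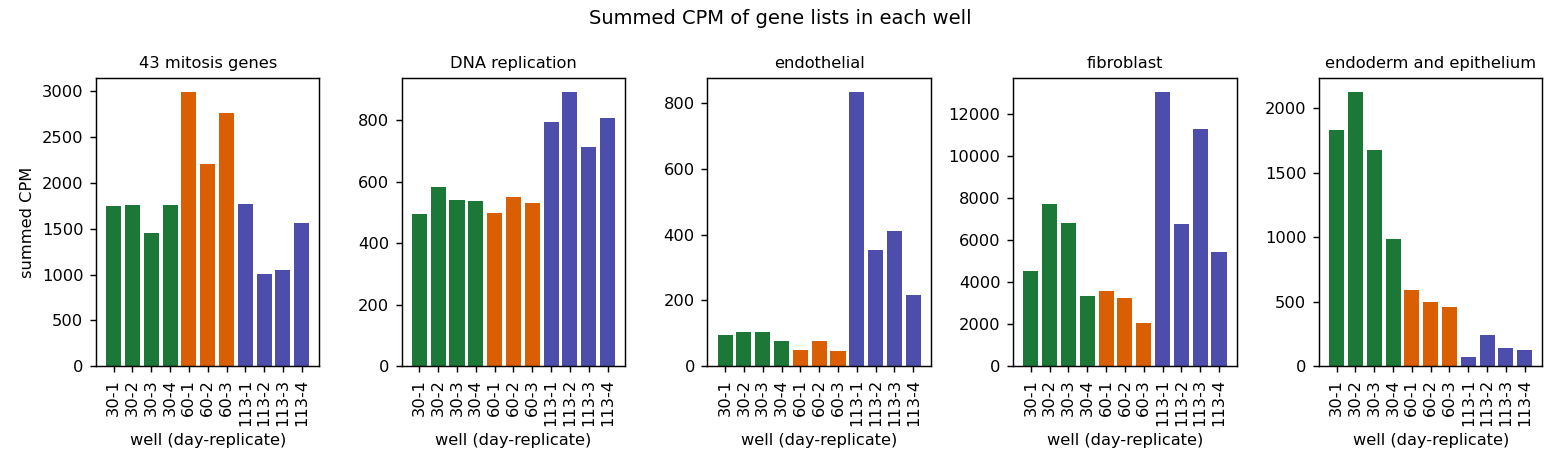
Summed CPM of the 43 mitosis genes, 29 DNA replication genes and the markers of 3 other cell types in each well (bars, named by day and replicate). The mitosis sum is highest in the 3 Day 60 wells (2204 to 2990), and the replication, endothelial and fibroblast sums are higher in every Day 113 well than in every Day 60 well.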

How the data were processed

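Poly(A) RNA of 11 wells was sequenced as paired-end 150-base reads, per the labels' protocols. The authors deposited whole-number read counts for 19990 gene symbols, and STAR 2.5.3a, featureCounts 2.0.3 and hg38 are named in the submitters' processing notes. The annotation and strand setting are not given in the sources used here. A deposited TPM table was used in no comparison, since the gene lengths it implied did not repeat between libraries (median Spearman rho -0.0016 over 55 library pairs).

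The counts were tested with edgeR 4.0.16 in R 4.3.3 (quasi-likelihood F-test, TMM, filterByExpr with a minimum count of 10, all 11 libraries, day as the only factor). P-values were adjusted by Benjamini-Hochberg over 19990 genes within each contrast, with a threshold of 0.05. Every adjusted p in the text is from this test unless another setting is named, and standard errors were derived from the fold change and the F statistic (|log2 fold change|/√F). Exon lengths were unions of GENCODE 29 exons, and gene coordinates are RefSeq GRCh38.p14. Alternatives were DESeq2 1.42.0, limma-voom (limma 3.58.1), other scalings and filters, robust dispersions, a replicate block, the compared days alone, and leaving out each well.

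The rule for the members used no values, but the members and lists were chosen with earlier results of these data known. Values in every well are given for MKI67, TOP2A, CCNB1, CDK1, PLK1, AURKB, CDC20, BIRC5, ANLN and BUB3 and for the member with the largest passed change in each direction within each role and pair of days. From the other lists, the 3 largest passed changes in each direction at Day 113 against Day 30 are named, with FOXM1, MYBL2, LIN9, RBL1, RBL2, MCM2, PCNA and RRM2.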

Additional observations from a re-analysis of the deposited data

Results flagged for a closer look

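Day 30 replicate 3 stood apart from the other 3 wells of its day in 2 values. Its summed member CPM was 1457, while the other wells lay between 1747 and 1764, and its NCAPH level was 9.61 CPM, while the others lay between 10.3 and 10.4. In each case the gap to the nearest well, as a share of the whole range (0.946 and 0.846), exceeded the critical value of Dixon's test for 4 wells. Of 88 groups of 4 wells examined, these 2 were singled out, and chance singles out about 1 group in 20.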

How the results depend on the processing

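The count of members that changed between Day 30 and Day 60 (15) was the least stable: 25 with DESeq2, 23 with limma-voom, 33 for the 2 days alone, and 6 to 24 when single wells were left out. The interval difference (37 members) gave 18 to 41 when single wells were left out. The counts for Day 113 against Day 60 (38), Day 113 against Day 30 (18) and any change (39) stayed within 1.5 times under every alternative run; leaving out single wells gave 32 to 39, 12 to 24 and 35 to 41. Without BUB3, SMC2, SMC4 and INCENP the summed CPM was 1432, 2341 and 1085 at Day 30, Day 60 and Day 113, and leaving out wells gave 1654 to 1756, 2484 to 2877 and 1206 to 1463. The labels do not pair the wells, and none of 10 same-numbered pairs had a correlation of deviations over 0.1 (0.023 to 0.076), though 9 of 11 wells correlated best with a same-numbered well. With the replicate number as a block, 28 members rose to Day 60. Over 18 members and their comparisons, 882 alternative values were computed: 802 kept direction and side of the threshold, 52 lost a call, 22 gained one and 6 changed sign. The sign changes were in values near 0 for Day 113 against Day 30: leaving out single wells gave -0.22 to 0.020 for CDK1 and -0.16 to 0.15 for NDC80, and NDC80 was at 0.013 for the 2 days alone. The cause was not tested. Omitting the low-count filter changed nothing, since it removed no gene.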
